A study of Drosophila melanogaster with 4 samples.

Results

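The epidermal growth factor (EGF) receptor pathway and its Ras-MAPK cascade were represented by 9 genes among the 13929 in the counts table. They were chosen by name as parts of this pathway, with earlier results of these data known: the receptor Egfr, the ligand spi, the ligand-processing protease rho, the cascade members Ras85D and rl, the Ets transcription factors pnt and aop, and the feedback inhibitors aos and sty. All 9 were found by symbol for their FlyBase gene identifiers. Nuclear RNA came from photoreceptors of male flies at Day 30, kept at 25 °C in a light-dark cycle and collected at Zeitgeber time 6, and each library was made from a pool of flies. In siTop3β flies (2 libraries) the RNAi construct TRiP.JF01282 targeted Top3β, an enzyme that untangles DNA and RNA, and in siControl flies (2 libraries) UAS-mCherry-RNAi took its place, against a red fluorescent protein with no counterpart among fly genes. Both RNAi constructs sat at attP2 in flies with w[1118] and ry[506], and both groups also carried UAS-Dcr-2.D, which strengthens RNAi, UAS-GFP-Msp300KASH, which puts GFP on the nuclear envelope so that tagged nuclei can be captured with an antibody, and rh1-GAL4, which drives these transgenes in the outer photoreceptors R1-R6. The design asked which transcripts change when Top3β is targeted in these neurons.

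In this pathway, the membrane-bound precursor Spitz is moved by Star and cut by the intramembrane protease Rhomboid, and the freed ligand binds Egfr. The receptor acts through Ras, Raf and MEK on the MAP kinase encoded by rl, which phosphorylates Pointed, an activator, and Aop (also called Yan), a repressor that competes for the same Ets sites. Argos, which binds Spitz outside the cell, and Sprouty, which acts inside it, are induced by the pathway and limit it. In the developing fly eye, repeated use of this pathway recruits photoreceptors and the accessory cells around them, and it protects these cells from death through the gene hid.

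The libraries held between 3239201 and 4267208 counts, and siTop3β replicate 1 had a count on 12922 genes, against 10104 to 10537 in the other 3. All 14 genes listed as markers of R1-R6 photoreceptors were detected, and none of the 14 was called. They summed to 75306 and 84303 CPM (counts scaled to library size with edgeR's TMM factors, so that libraries can be compared) in siTop3β and to 83656 and 86609 CPM in siControl. Of these, ninaE, the Rh1 gene of the outer photoreceptors, had 14833 and 16184 CPM in siTop3β and 18200 and 17072 CPM in siControl. Whether the other listed genes are confined to R1-R6 was not tested, so the sum does not measure purity. Markers of other cells were far lower in sum: at most 97.6 CPM for R7 and R8 cells, 204.8 for glia, 166.3 for other neurons, 94.1 for cone and pigment cells and 999.3 for muscle, fat body and haemocytes, most of the last being apolpp. Top3β itself had 57 and 71 counts in the libraries labelled siTop3β and 70 and 57 in siControl. After scaling this was 16.54 and 18.96 CPM in siTop3β and 16.25 and 16.31 CPM in siControl. Both siTop3β libraries lay above both siControl libraries, with a log2 fold change of 0.13 that was not called. The target transcript was thus not lower in this nuclear RNA (95% interval from 76.4% to 156% of siControl), and directions below rest on the labels. The study measured the knockdown by qPCR in larvae with ubiquitous RNAi, where the Top3β transcript was reduced.

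None of the 8 members that could be tested passed an adjusted p of 0.05 by edgeR's quasi-likelihood test over 7029 genes, a threshold that 1.21% of all tested genes passed. Without adjustment, 2 of the 8 (rl and sty) had p under 0.05, against 9.09% of tested genes, and DESeq2's Wald test, which gave an adjusted p for 6 of the members, called none. The ninth gene, aos, was below edgeR's expression filter. Of the 8, 4 had a positive and 4 a negative log2 fold change of siTop3β over siControl, and their median was -0.02, beside 0.02 over all tested genes. The groups did not overlap for 4 members: rl and sty were lower and spi and Egfr were higher in both siTop3β libraries. Such separation was found for 38.5% of all tested genes. In bulk nuclear RNA, fewer cells of a type and less RNA per cell cannot be told apart.

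**Figure D1:**
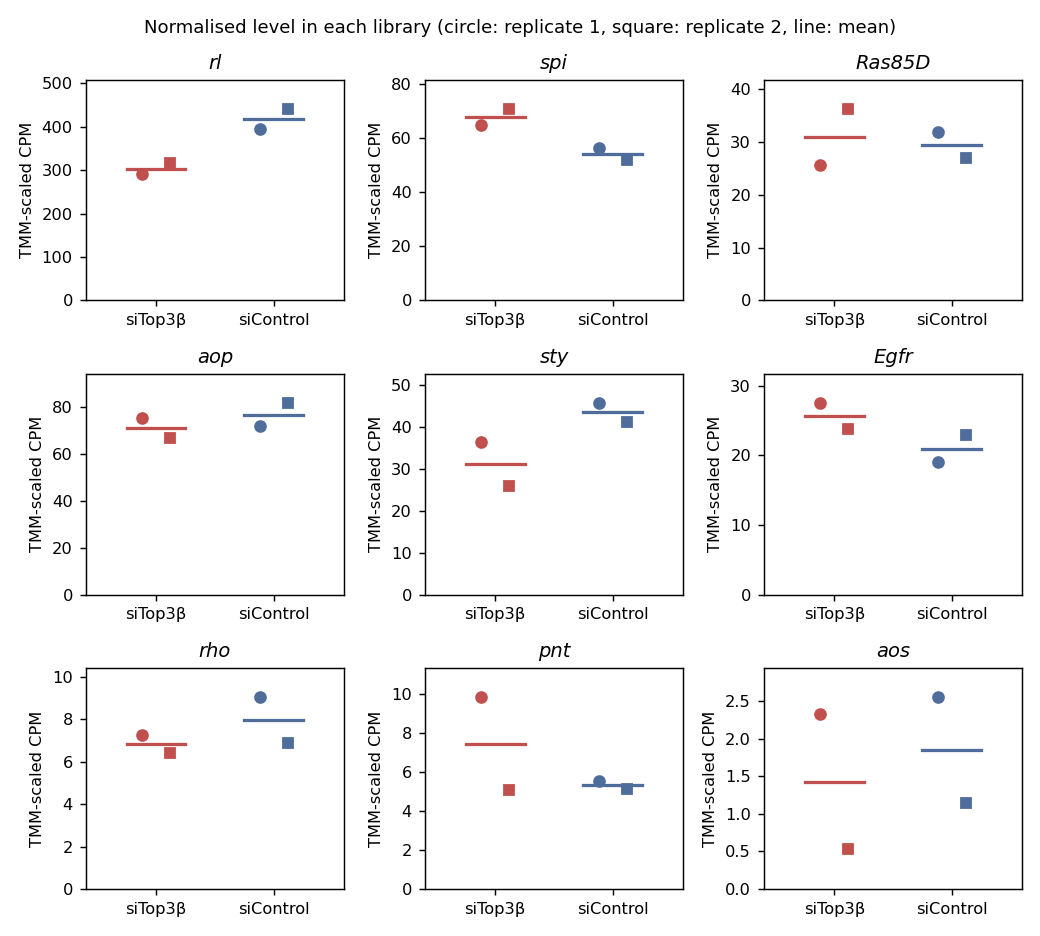
TMM-scaled CPM of the 9 genes (y axes, linear from 0, a separate scale per gene) in the siTop3β and siControl libraries (x axes); circles are replicate 1, squares replicate 2 and lines the means. The groups are apart for rl, spi, sty and Egfr, and overlap for the other 5 genes.

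The receptor gene Egfr (FBgn0003731, chromosome 2R from 21522420 to 21559977 in dm6 coordinates) had 95 and 89 counts in siTop3β and 82 and 80 in siControl. This was 27.6 and 23.8 CPM in siTop3β, against 19.0 and 22.9 CPM in siControl. Both siTop3β libraries lay above both siControl libraries, with a gap of under 1 CPM between the nearest pair. The log2 fold change was 0.29, with a 95% interval from -0.17 to 0.76 and an adjusted p of 0.791 from edgeR.

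The ligand gene spi (FBgn0005672, chromosome 2L from 19567900 to 19577315) encodes the main activating ligand of the receptor in the eye. It had 224 and 266 counts in siTop3β and 243 and 181 in siControl, which became 65.0 and 71.0 CPM in siTop3β and 56.4 and 51.8 CPM in siControl after scaling. The replicates were close, and the lower one reached 91.5% of the higher in siTop3β and 91.8% in siControl. The groups did not overlap, with means of 68.0 ± 4.25 CPM in siTop3β and 54.1 ± 3.27 CPM in siControl (SD, n = 2 each). The log2 fold change of 0.33 had a 95% interval that reached 0 (0.00 to 0.66), and the adjusted p from edgeR was 0.554.

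The protease gene rho (FBgn0004635, chromosome 3L from 1463811 to 1468944) gave few counts, 25 and 24 in siTop3β and 39 and 24 in siControl. Its levels overlapped between the groups, at 7.26 and 6.41 CPM in siTop3β and 9.06 and 6.87 CPM in siControl. The log2 fold change was -0.23 with a 95% interval from -0.99 to 0.53, so either direction was possible at this depth. rho overlaps Ptp61F, a phosphatase gene on the opposite strand with no shared exonic bases, which had 478 and 473 counts in siTop3β and 604 and 592 in siControl. Whether introns or strand were used in counting is not given in the sources used here.

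Of the cascade genes, rl had the smallest p of all members and the highest level per kb of exon. rl (FBgn0003256, chromosome 2R from 1071462 to 1125927) encodes the fly MAP kinase ERK. It had 1005 and 1183 counts in siTop3β and 1701 and 1545 in siControl, or 291.7 and 315.9 CPM in siTop3β, against 395.0 and 442.1 CPM in siControl. Both siTop3β libraries were lower than both siControl libraries, with means of 303.8 ± 17.1 CPM in siTop3β and 418.6 ± 33.3 CPM in siControl (SD, n = 2 each). The log2 fold change was -0.46 (standard error 0.14, 95% interval from -0.74 to -0.18), which put siTop3β at 72.6% of siControl, and the adjusted p from edgeR was 0.109. It ranked at place 139 by p among the 7029 tested genes, outside the 85 that were called. The call depended on the fit: rl passed when 10 counts were required in every library (adjusted p = 0.0442 from edgeR) and without siTop3β replicate 2 (adjusted p = 0.00614), and its adjusted p ran from 0.00614 to 0.998 over all alternatives, while the fold change was negative in 12 of 12. The annotation places 3 transposable element copies within the span of rl, and how reads with several alignments were counted is not stated.

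Ras85D, the small GTPase between the receptor and the kinases (FBgn0003205, chromosome 3R from 9510561 to 9513067), overlapped between the groups. Its counts were 88 and 136 in siTop3β and 137 and 94 in siControl. The siTop3β libraries lay at 25.5 and 36.3 CPM, on either side of the siControl libraries at 31.8 and 26.9 CPM. Its log2 fold change was 0.07, with a 95% interval from -0.37 to 0.52, and it became -0.25 without siTop3β replicate 2 and -0.05 without siControl replicate 2.

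Neither Ets factor was called. The repressor gene aop (FBgn0000097, chromosome 2L from 2156484 to 2178754) had 260 and 250 counts in siTop3β and 309 and 286 in siControl, or 75.5 and 66.8 CPM in siTop3β and 71.8 and 81.8 CPM in siControl. The groups overlapped, and the log2 fold change of -0.11 had a 95% interval from -0.43 to 0.21. aop shares 307 exonic bases with CG15382 on the opposite strand, which had 4 to 6 counts per library. The activator gene pnt (FBgn0003118) lies on chromosome 3R from 23290231 to 23346167. Its siTop3β libraries gave 34 and 19 counts and its siControl libraries 24 and 18. This was 9.87 and 5.07 CPM in siTop3β, against 5.57 and 5.15 CPM in siControl, so that siTop3β replicate 1 stood alone and replicate 2 was lower than both siControl libraries. Its log2 fold change of 0.47 (95% interval from -0.40 to 1.33) became -0.08 without siTop3β replicate 1, the library with counts on the most genes.

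Within each library, the log2 CPM of pnt minus that of aop was -2.93 and -3.72 in siTop3β and -3.69 and -3.99 in siControl. The mean difference was -3.33 in siTop3β and -3.84 in siControl, and the libraries of the groups overlapped (exact permutation test over libraries, two-sided p = 0.667, where 0.333 is the smallest that 2 against 2 allows). These differences are not scaled to gene length.

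The feedback inhibitors were aos and sty. aos (FBgn0004569, chromosome 3L from 16470386 to 16483650) was close to the limit of detection, with 8 and 2 counts in siTop3β and 11 and 4 in siControl. One siTop3β library was thus below 3 counts, which correspond to between 0.697 and 0.871 CPM. No fold change was taken, because aos was below edgeR's expression filter in the fit reported here. It entered some of the alternative fits, whose values for aos are not given. It overlaps CG33158 on the opposite strand, which had 61 and 68 counts in siTop3β and 92 and 62 in siControl. sty (FBgn0014388), which lies on chromosome 3L from 3401153 to 3424935, had 125 and 97 counts in siTop3β and 197 and 144 in siControl. Its level was 36.3 and 25.9 CPM in siTop3β and 45.7 and 41.2 CPM in siControl, and both siTop3β libraries were lower than both siControl libraries. The means were 31.1 ± 7.34 CPM in siTop3β and 43.5 ± 3.21 CPM in siControl (SD, n = 2 each). The log2 fold change was -0.49 (standard error 0.20, 95% interval from -0.90 to -0.08), the most negative among the members, and the adjusted p was 0.386 from edgeR. The fold change ranged from -0.75 without siTop3β replicate 1 to -0.30 without siTop3β replicate 2, and no fit called it.

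Per kb of exonic sequence, the members spanned a wide range of levels. In siControl the order was rl at 55.1, spi at 29.8, Ras85D at 15.0, aop at 14.1, sty at 7.99, Egfr at 3.02, rho at 2.65, pnt at 0.876 and aos at 0.655 CPM per kb. The libraries of Ras85D and aop overlapped, as did those of Egfr and rho and those of pnt and aos, so these neighbours were not ordered. In siTop3β the same order was seen, with 40.0 CPM per kb for rl and 37.4 for spi, whose libraries then overlapped, whereas in siControl rl lay above spi in both libraries. Among tested genes with a known length, rl stood at percentile 89.3 in siTop3β and 92.1 in siControl, spi at 88.3 in siTop3β and 84.4 in siControl, and Egfr at 30.8 in siTop3β and 27.3 in siControl. By this measure the transcripts of the MAP kinase and the ligand were well above most tested genes, and that of the receptor was below most. Per kb of gene span, with introns included, Ras85D came first at 12.3 in siTop3β and 11.7 in siControl, ahead of rl at 5.58 in siTop3β and 7.68 in siControl, and which measure fits depends on whether intronic reads were counted.

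**Figure D2:**
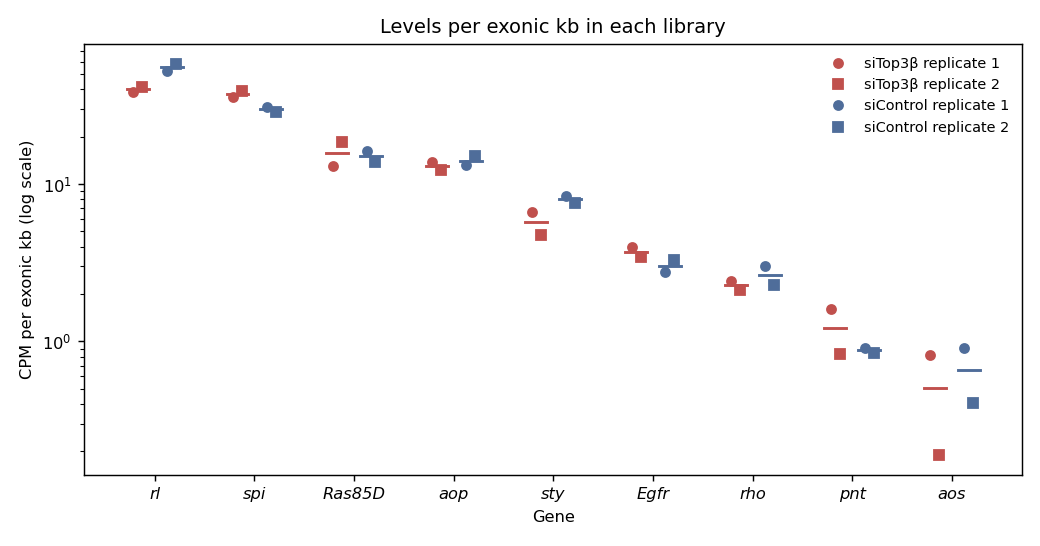
CPM per exonic kb (y axis, log scale) for the 9 genes (x axis, ordered by the siControl mean) in each library; circles and squares are replicates 1 and 2 and lines the means. The siControl means run from 55.1 for rl to 0.655 for aos, and rl and spi overlap in siTop3β but not in siControl.

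The study compared gene span with expression, and 8 of the 9 members were longer than the median tested gene (3.54 kb). The longest were pnt at 55.9 kb and rl at 54.5 kb, followed by Egfr at 37.6, sty at 23.8 and aop at 22.3 kb. These 5 genes over 20 kb did not share a sign: rl, sty and aop had negative and Egfr and pnt positive log2 fold changes. The 95% intervals of aop, Egfr and pnt held 0. Of all tested genes over 20 kb, 577 of 886 had a negative value, with a median of -0.12, beside 3271 of 7029 tested genes of any span. The nearly equal spans of pnt and rl went with log2 fold changes of 0.47 for pnt and -0.46 for rl. That of pnt had the wide interval given above and became -0.08 without siTop3β replicate 1, so opposite directions were not established.

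**Figure D3:**
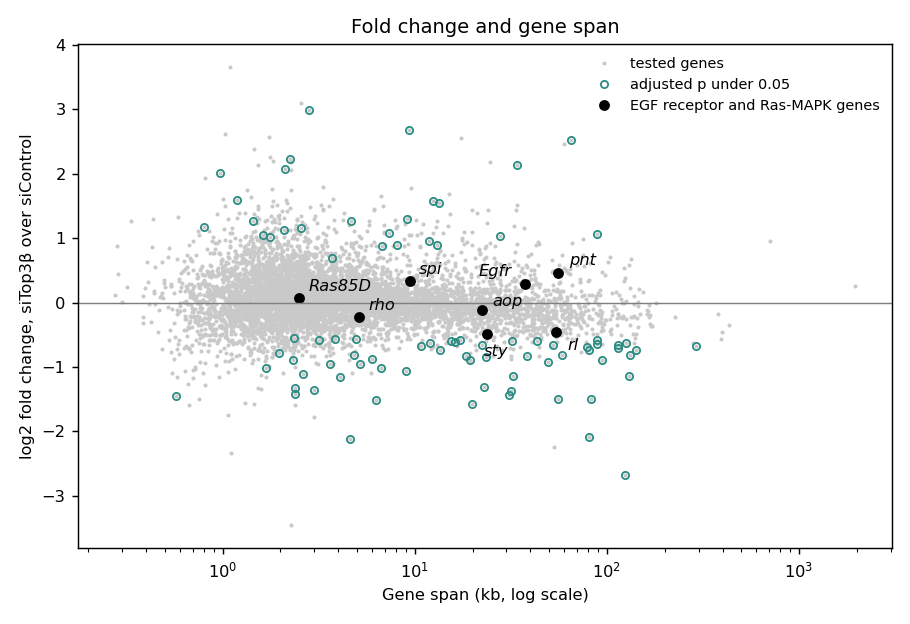
Log2 fold change of siTop3β over siControl (y axis) against gene span in kb (x axis, log scale) for tested genes with an annotated span (grey points), genes with an adjusted p under 0.05 (open circles) and the 8 tested members (black, labelled). The 5 members over 20 kb lie on both sides of 0, and no member is among the open circles.

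Few of the other genes of the pathway were called. Of 44 genes in 6 role groups, 37 were tested, and 1 was called lower and 0 higher, beside 0.825% of all tested genes called lower. Without adjustment 2 of the 37 had p under 0.05, against 9.09% of all tested genes. DESeq2, which gave an adjusted p for 30 of these pathway genes, called 1. The median log2 fold change was -0.06. Groups were lower without overlap for 13 genes and higher for 2, against 19.0% and 19.6% of all tested genes.

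The called gene was pros (FBgn0004595, chromosome 3R from 11328480 to 11407627), a homeodomain transcription factor that the pathway helps to induce in R7 and cone cells of the developing eye. Its lower level in these libraries was already known when the list was drawn up. It had 621 and 616 counts in siTop3β and 1255 and 922 in siControl, or 180.2 and 164.5 CPM in siTop3β and 291.4 and 263.8 CPM in siControl. pros fell by 0.69 on the log2 scale (standard error 0.14, adjusted p = 0.00408 from edgeR), and passed in 12 of 13 fits, the exception being the one without siControl replicate 1 (adjusted p = 0.409). The summed level of R7 and R8 markers was 83.3 and 87.6 CPM in siTop3β and 87.5 and 97.6 CPM in siControl. Of the 4 tested markers in that list, 3 had negative log2 fold changes and 1, Rh6, a positive one of 0.32. Their median was -0.22 and none was called. The summed level of cone and pigment cell markers was 68.2 and 76.6 CPM in siTop3β and 81.7 and 94.1 CPM in siControl, without overlap. Of the cone and pigment cell markers, none of 4 was at 0 and none was called. All 4 had negative log2 fold changes, from -1.09 to -0.12, with a median of -0.53. The lowest was santa-maria, with 19 and 10 counts in siTop3β and 32 and 35 in siControl. The part of these markers in the result was not tested. In the same role group, ttk, a repressor of neuronal fate, had a log2 fold change of -0.21, and hid, the death gene held in check by the pathway, had 31 and 17 counts in siTop3β and 33 and 18 in siControl.

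Among the kinase cascade genes, Mkp3 had the smallest p. It encodes the phosphatase that inactivates the rl kinase, and had 161.4 and 188.2 CPM in siTop3β and 231.0 and 222.9 CPM in siControl. Its log2 fold change was -0.38 (95% interval from -0.66 to -0.10, adjusted p = 0.267 from edgeR). Mkp3 passed only without siTop3β replicate 2, where its log2 fold change was -0.53 and more genes were called in all. The scaffold gene Sur-8, at 80.4 ± 4.14 CPM in siTop3β and 66.5 ± 1.82 CPM in siControl (SD, n = 2 each), had a log2 fold change of 0.27 and was not called. The scaled levels of the kinases between Ras and rl overlapped between the groups. Raf had 26.1 and 24.3 CPM in siTop3β (90 and 91 counts) and 23.0 and 36.9 CPM in siControl (99 and 129 counts). The MEK gene Dsor1 had 11.6 and 7.21 CPM in siTop3β (40 and 27 counts) and 9.52 and 7.73 CPM in siControl (41 and 27 counts).

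Of the other feedback inhibitors, 3 were tested and none was called. Spred and kek1 had log2 fold changes of -0.24 and -0.15, and ed of -0.11, and both siTop3β libraries were below both siControl libraries for each of the 3, as for 19.0% of all tested genes. Spred, a relative of Sprouty, averaged 127.4 ± 4.10 CPM in siTop3β and 150.1 ± 7.46 CPM in siControl (SD, n = 2 each). The fourth, edl, had 11 and 2 counts in siTop3β and 5 and 0 in siControl and was not tested.

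Ligand processing genes included S (Star), which carries Spitz precursor out of the endoplasmic reticulum and had the highest level per kb of exon in its group (41.8 CPM per kb in siTop3β and 50.6 in siControl). It had 213.0 and 222.4 CPM in siTop3β, against 253.3 and 273.0 CPM in siControl, a separation without overlap and a log2 fold change of -0.27 (95% interval from -0.55 to 0.00) that was not called. The rhomboid relative rho-4 had a log2 fold change of -0.41. The germline ligand gene grk had 6 and 2 counts in siTop3β and 2 and 2 in siControl, and the ligand genes Krn and vn had log2 fold changes of 0.02 and -0.19.

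None of 9 adaptor and Ras regulator genes was called, with log2 fold changes from -0.13 for RasGAP1 to 0.16 for vap, both of which encode GTPase-activating proteins for Ras. The phosphatase gene csw had the highest level per kb among them, and its scaled levels were 615.5 and 667.5 CPM in siTop3β and 644.4 and 618.7 CPM in siControl. Its groups overlapped, with a 95% interval of the log2 fold change from -0.26 to 0.31. Of the 10 genes for other receptor tyrosine kinases and their ligands, 8 were tested and none was called. Alk and Pvr had the smallest p, with log2 fold changes of -0.40 and 0.32, and Pvr was at 15.4 and 7.48 CPM in siTop3β and at 9.52 and 8.58 CPM in siControl.

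**Figure D4:**
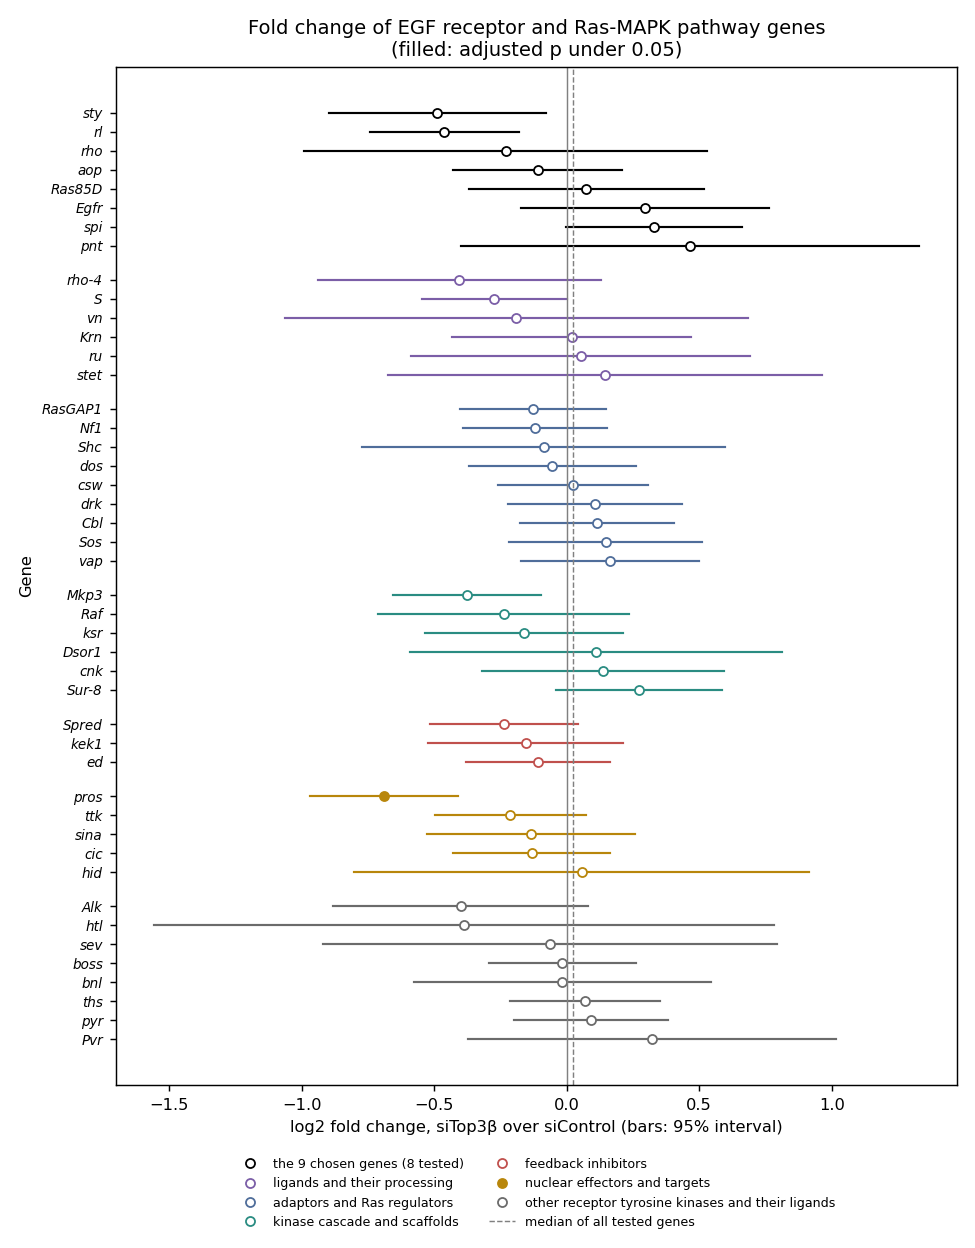
Log2 fold change of siTop3β over siControl (x axis, bars are 95% intervals from edgeR) for the 8 tested members and 37 other tested pathway genes (y axis), coloured by role; filled circles have an adjusted p under 0.05 and the dashed line is the median of all tested genes, 0.02. Only pros is filled, and among the members only the intervals of sty and rl exclude 0.

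Markers of muscle, fat body and haemocytes summed to 618.7 and 700.1 CPM in siTop3β and 927.9 and 999.3 CPM in siControl, most of it apolpp, a lipoprotein gene of the fat body that was called lower (adjusted p = 0.0230 from edgeR). NimC1, a haemocyte marker, had at most 11 counts in any library, and the muscle marker Act88F had 5 and 1 counts in siTop3β and 0 in both siControl libraries. The glial list summed to 175.3 and 184.2 CPM in siTop3β and 204.8 and 198.9 CPM in siControl. The first difference was that of apolpp: of the 4 tested markers in its list 2 had negative and 2 positive log2 fold changes, with a median of 0.02. In the glial list, the 6 tested markers had negative log2 fold changes with a median of -0.10, 5 overlapped between the groups and none was called. Its largest part, nrv2, had 81.6 and 105.5 CPM in siTop3β and 118.0 and 98.7 CPM in siControl. The untested wrapper had 13 and 8 counts in siTop3β and 3 and 3 in siControl. The list of other neurons summed to 156.1 and 125.0 CPM in siTop3β and 166.3 and 156.2 CPM in siControl. Of its 6 tested markers, 5 had negative log2 fold changes and 1 a positive one, with a median of -0.28. For 4 of the 6 the groups were lower without overlap, and none was called. The levels of apolpp and the sums for glia and other neurons were lower in siTop3β, like those of rl, sty, Mkp3 and S. The part of these markers in those values was not tested.

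**Figure D5:**
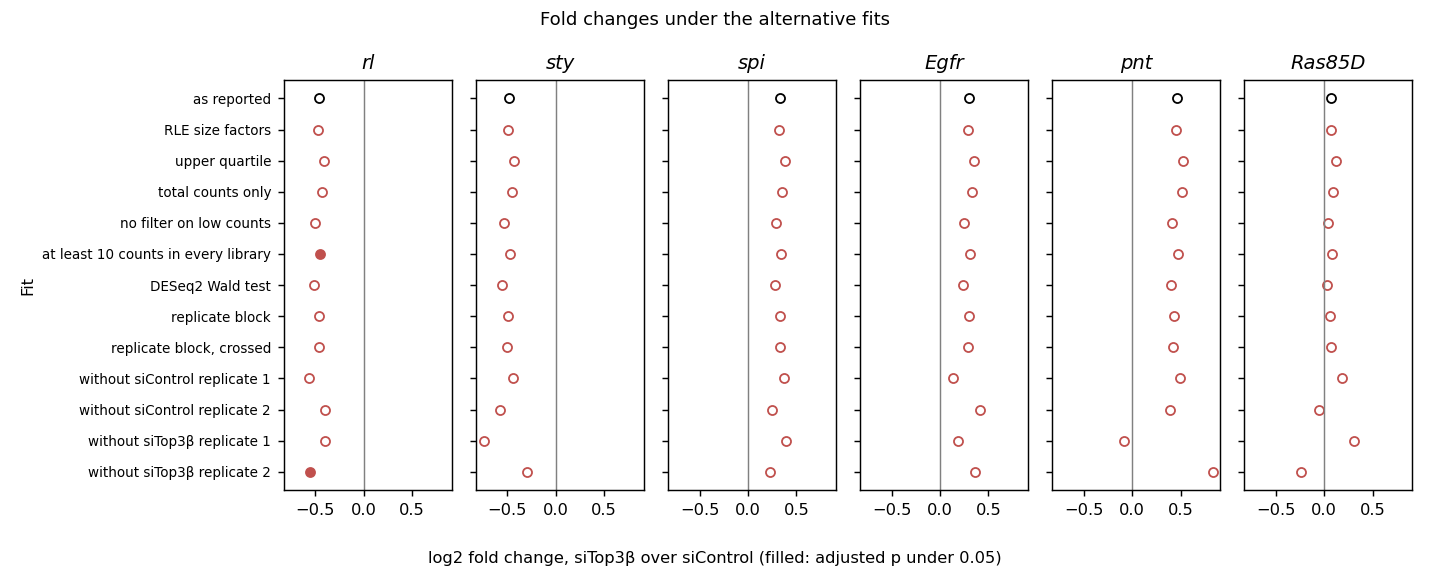
Log2 fold change of siTop3β over siControl (x axes) for 6 members in the fit reported here (black) and in 12 alternative fits (red; y axis); filled circles have an adjusted p under 0.05. rl is filled in 2 alternatives, and pnt and Ras85D cross 0 when single libraries are left out.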

How the data were processed

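Reads were trimmed (Trimmomatic) and mapped to dm6 (STAR) by the authors, and the deposited values are unnormalized counts of each gene in each library. The tool and annotation behind the counts, and the handling of introns, strand and multiple alignments, are not given in the sources used here. Tests were made on these counts in R 4.3.3. Libraries were scaled by TMM, low genes were removed by edgeR 4.0.16's filter, which left 7029, and groups were compared by its quasi-likelihood test in robust form. Two-sided p-values were adjusted by the Benjamini-Hochberg method over all 7029 genes and called under 0.05. DESeq2 1.42.0 gave an alternative fit. Standard errors and 95% intervals came from the test statistic. Exonic length is the union of exons in the Ensembl release 115 annotation (dm6 coordinates), which covered 13866 of 13929 identifiers. A floor of 3 counts covers counting error only.

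The members and lists were chosen with earlier results of these data known. Named are all 9 members, each other pathway gene that was called and, per role group, the 2 tested genes of smallest p; other names were chosen after their values were seen. Gap1 is listed as RasGAP1. Replicates of a group differed by more than sampling noise (chi-square per degree of freedom 5.60 in siTop3β and 4.12 in siControl). The study's methods describe 3 independent replicates of pooled males for its high-throughput experiments, and 2 libraries per group were analysed here. The labels do not tie these libraries to separate crosses. The p-values of edgeR and DESeq2 rest on the spread between these libraries, estimated in part across genes and not from each gene alone. Normalization, filters, the test, a replicate block and single libraries were varied. Sequences of the members were not used here.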

Additional observations from a re-analysis of the deposited data

How the results depend on the processing

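The 85 genes called in all (58 lower, 27 higher) became 138 with at least 10 counts in every library, 51 with DESeq2 (43 lower, 8 higher), 97 with no filter (55 lower, 42 higher) and 52 to 424 when single libraries were left out, where the arm with 1 library is assumed to vary like the other. Leaving out siTop3β replicate 2 gave 424 genes (171 lower, 253 higher), siTop3β replicate 1 131 and siControl replicate 1 52. The causes were not tested. Calls among the members numbered 1 (rl) with at least 10 counts in every library and 0 to 1 when libraries were left out. Among the other pathway genes they numbered 0 to 2, 0 without siControl replicate 1 and 2 (pros and Mkp3) without siTop3β replicate 2. The log2 fold change of rl without that library was -0.56. With single libraries left out, signs turned for Ras85D (-0.25 without siTop3β replicate 2 and -0.05 without siControl replicate 2, highest 0.30), pnt (-0.082 without siTop3β replicate 1, highest 0.83), Pvr (-0.28 without siTop3β replicate 1, highest 0.72), vap (-0.11 without siTop3β replicate 2, highest 0.36) and Top3β (-0.017 without siTop3β replicate 2, highest 0.22). The highest tested member exceeded the lowest in siControl by 62.9-fold per exonic kb and by 122.2-fold per kb of span. The difference between pnt and aop between the groups was 0.51, and 0.49 with a prior count of 2. No scaling moved the median of all genes by over 0.1.

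Same-numbered libraries had a correlation of -0.12 in their deviations, so the labels' numbers were not taken as pairs. The replicate block gave 60 genes, and a block that crossed the numbers (an alternative chosen after seeing the data) gave 211 (131 lower, 80 higher). Neither called a member, and both called pros alone among the other pathway genes. For rl the replicate block gave an adjusted p of 0.162 from edgeR.

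aos is given by its counts alone, since it was below the expression filter of the fit reported here. At their depth of 18 to 39 counts per library, rho and pnt had intervals that held changes in either direction.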
